A study of Mus musculus with 6 samples.

Results

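The 10 glutathione transferase genes Gsta4, Gstm1, Gstm2, Gstm4, Gstm5, Gstp1, Gstt1, Gstt2, Gstk1 and Gsto1 were followed by RNA sequencing in aged mouse muscle. They were taken by gene symbol from a table of 55416 genes, and all 10 had enough counts to be tested. Another 17 transferase genes were found in the table, of which 9 were tested. Total RNA came from the tibialis anterior (TA), a fast muscle of the lower leg, of 3 wild-type (WT) and 3 SELENOW knockout (KO) mice, all aged naturally to 24 months and kept on a C57BL/6N background. The KO mice lack exon 4 of the gene, removed with CRISPR-Cas9 in the line and not in muscle alone, and no group was given a drug. The comparison asked how the aged muscle transcriptome differs without SELENOW, a small selenium-containing protein with a thioredoxin-like fold.

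Glutathione transferases join the tripeptide glutathione to reactive, electrophilic molecules, such as drugs, environmental toxins and the aldehydes left by lipid peroxidation, so that the conjugates can be carried out of the cell. The soluble enzymes fall into classes named by Greek letters. The alpha enzyme GSTA4 is known for its activity on the lipid aldehyde 4-hydroxynonenal, mu enzymes (GSTM) and pi enzymes (GSTP) act on a wide range of electrophiles, theta enzymes (GSTT) act on small halogenated compounds, the kappa enzyme GSTK1 sits in mitochondria and peroxisomes, and the omega enzyme GSTO1 acts as a thiol transferase. Many of these genes carry sites for the transcription factor NRF2, the main regulator of the cell's response to oxidants and electrophiles.

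Sequence decides how well the counts of near-identical family members can be told apart, and it differed widely within the family. Below are the first 150 coding bases of the closest pair that holds a described gene, in mouse GENCODE M21 transcripts (GRCm38), with the bases that differ in capitals.
Gstp1: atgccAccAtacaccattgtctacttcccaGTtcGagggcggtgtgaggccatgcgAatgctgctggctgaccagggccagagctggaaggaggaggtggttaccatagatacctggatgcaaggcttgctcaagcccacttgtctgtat
Gstp2: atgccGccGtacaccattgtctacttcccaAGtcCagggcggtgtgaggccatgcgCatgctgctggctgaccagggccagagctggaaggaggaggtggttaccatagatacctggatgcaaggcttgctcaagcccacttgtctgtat
Gstp1 and Gstp2 differed at 6 of these 150 bases and at 12 of 630 over the whole coding sequence, an identity of 98.1%. For each gene the transcript with the longest coding sequence was searched for stretches of 150 bases, the read length, that occur in another gene. In Gstp1, 41.8% of the stretches occurred unchanged in Gstp2 or the pseudogene Gstp-ps. The split of reads between these genes is thus uncertain. Gstm1 and Gstm2 were identical at 562 of 732 aligned positions, or 76.8%. Gaps count as differences there, since the coding sequences compared were 732 and 654 bases long. Over the first 150 bases, which held no gap, they differed at 21. No stretch of 150 bases in the searched transcript was shared with another gene for Gsta4, Gstm1, Gstm2, Gstm4, Gstt1, Gstt2, Gstk1 or Gsto1. Except for Gstm4, these transcripts were shorter than the counted length, at 2254 of 4156 bases for Gstt2 and 828 of 1473 for Gstm1. The rest of the counted length was not searched. Gstm5 shared 3.64% of its stretches with the antisense gene 4933431E20Rik on the opposite strand, and Gsto1 lies across Cfap43 on the opposite strand.

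Promoters, taken as 300 bases around each RefSeq start site (GRCm38.p6), were on hand for 8 of the 10 genes, all but Gsta4 and Gstt2. They were searched on both strands for the core of the antioxidant response element, TGACNNNGC, to which NRF2 binds, and for TGANTCA, the AP-1 site that overlaps many such elements. The antioxidant core in this form occurred in 1 of the 8 genes, Gstm5, against 12.4% of 32851 promoter windows of the genome. Other forms of the element were not searched, and some genes had more than 1 window. The AP-1 sequence occurred in 2 of the 8, Gstm5 and Gstp1, against 7.81% of windows. Both promoters are printed 5′ to 3′ with the matches in capitals, since these are the 2 genes in which either sequence was found. Gstm5 lies at chr3:107895604-107895903 on the plus strand and Gstp1 at chr19:4037863-4038162 on the minus strand.
Gstm5: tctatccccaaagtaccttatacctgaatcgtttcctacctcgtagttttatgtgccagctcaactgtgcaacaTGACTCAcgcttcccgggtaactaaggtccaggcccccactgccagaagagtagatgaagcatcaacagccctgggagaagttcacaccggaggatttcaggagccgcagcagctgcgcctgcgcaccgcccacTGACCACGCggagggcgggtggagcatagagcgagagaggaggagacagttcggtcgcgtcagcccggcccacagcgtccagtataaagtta
Gstp1: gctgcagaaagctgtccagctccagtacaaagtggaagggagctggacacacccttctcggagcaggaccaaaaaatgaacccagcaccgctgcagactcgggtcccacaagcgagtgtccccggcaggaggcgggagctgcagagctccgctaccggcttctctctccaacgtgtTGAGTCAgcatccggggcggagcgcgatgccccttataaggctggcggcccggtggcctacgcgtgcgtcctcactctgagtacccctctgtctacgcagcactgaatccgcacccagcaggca
A match describes these letters and not a bound site.

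The WT libraries held 25351976 to 29111213 counts and the KO libraries 27345022 to 27815342. A count of 3 was worth 0.103 to 0.118 CPM, the share of a library's counts on a fixed scale, so every described gene was well above that level. Levels are given as CPM scaled by TMM factors, and between genes as CPM per kilobase of the length given in the table. Genes of the mitochondrial genome took 29.1 to 37.3% of counts in WT and 35.4 to 40.3% in KO. The 9 fast fibre genes used as markers summed to 78833 to 103120 CPM over the 6 libraries, and the 6 hepatocyte markers to at most 1.62 CPM, the liver being a tissue rich in transferases. Selenow itself was at 268, 245 and 219 CPM in WT and 193, 212 and 210 in KO. The libraries of the genotypes did not overlap, and edgeR's quasi-likelihood test gave -0.25 as the log2 fold change (standard error, SE, 0.14, adjusted p = 0.604). Counts over the whole gene do not measure the deleted exon on its own.

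Gstp1 was the most abundant of the 10 transferases and the theta genes the least, across a range of 127.7-fold. Gstp1 had a mean level of 65.3 CPM per kilobase over the 6 libraries, above all other members in every library. Gstm1 followed at 23.4 and Gstm5 at 22.0 CPM per kilobase, and their ranges overlapped. Gstm2 at 10.96 and Gstk1 at 9.31 CPM per kilobase also overlapped each other. Gsto1 lay at 6.20 CPM per kilobase, apart from both of its neighbours in the order. Gsta4 at 3.94 and Gstm4 at 2.81 CPM per kilobase overlapped, as did Gstt1 at 0.742 and Gstt2 at 0.511. Gstp1 alone held 47.6% ± 2.55 of the summed level per kilobase in WT and 42.4% ± 3.07 in KO, the 4 mu genes 38.8% ± 1.36 and 42.5% ± 2.64, and Gstt1 with Gstt2 0.720% ± 0.103 and 1.02% ± 0.0836 (SD, n = 3 each). Outside the 10, Gstp2 was at 94.6 CPM per kilobase in WT and 86.9 in KO, above Gstp1 at 68.5 and 62.1. Mgst3 was at 59.7 and 65.4 CPM per kilobase. The level and share of Gstp1 depend on the uncertain split of reads between Gstp1 and Gstp2. The length given for Gstt2 is 4156 bases for a coding sequence of 732, so its level per kilobase depends strongly on how much of that length the muscle transcript uses.

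**Figure D1:**
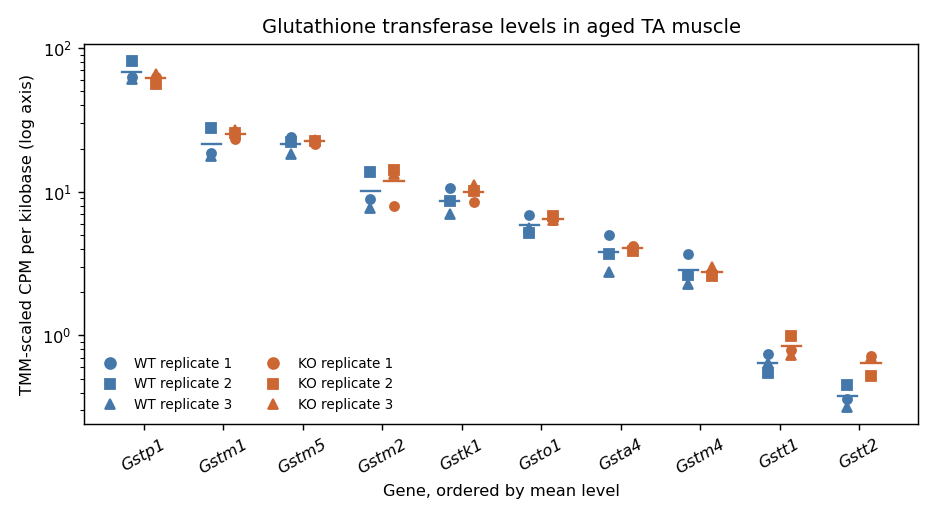
Level of each of the 10 genes in TMM-scaled CPM per kilobase on a log axis, ordered by mean. Each point is a library (blue WT, orange KO, shape for replicate) and each line the mean of 3. Gstp1 stood above the other genes at a mean of 65.3, and Gstt1 and Gstt2 lay lowest at 0.742 and 0.511.

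Between the genotypes, Gstt2 was higher in KO muscle and the other 9 genes did not pass the thresholds of the study, an unadjusted p under 0.05 with a fold change over 1.5 or under 0.7. Thus 1 of 10 genes was called, where 5.35% of all 15623 tested genes were called and 2.21% were called as higher. With the threshold on p alone it was again Gstt2 only, against 9.89% of all genes, and with DESeq2 on the same thresholds Gstt2 only, against 4.94%. Gstt2 was also the only member whose libraries did not overlap between genotypes, against 15.4% of all genes, or 7.53% with KO higher. The log2 fold changes of the 10 genes ran from -0.14 for Gstp1 to 0.78 for Gstt2 with a median of 0.17, and that of all tested genes was -0.0042. Of the 10, 2 lay below 0, against 50.6% of all tested genes, and this count was 4 without WT replicate 3 and 1 without WT replicate 1, WT replicate 2 or KO replicate 2. In bulk tissue a change in the number of cells of a type and a change in RNA per cell cannot be told apart.

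For Gsta4, Gstm4, Gstm5, Gstp1, Gstk1 and Gsto1 the 95% interval of the log2 fold change lay inside the thresholds, which are -0.51 and 0.58 on this scale. For these 6 genes the interval held no difference past either threshold. The intervals of Gstm1, Gstm2 and Gstt1 crossed the upper threshold, so a change of that size could not be told from none. No gene of the whole table had an adjusted p under 0.05 with edgeR after the filter on low counts, 1545 had an unadjusted p under 0.05, and DESeq2 on 15618 of the genes gave 45 with an adjusted p under 0.05. The exact permutation test for 3 against 3 libraries has a smallest possible p of 0.1.

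**Figure D2:**
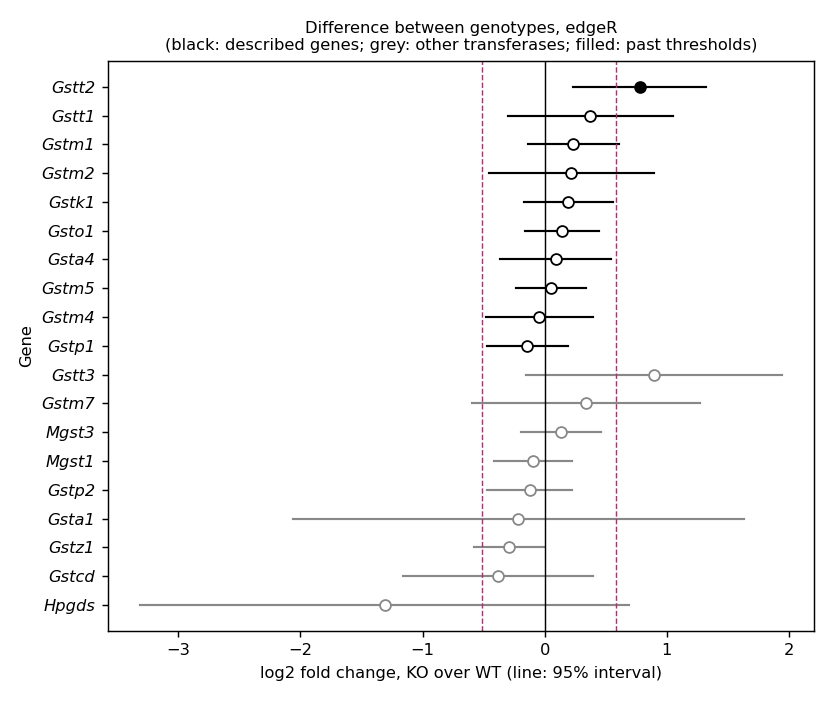
Log2 fold change of KO over WT with its 95% interval for the 10 described transferases (black) and the 9 other tested transferases (grey), and the fold thresholds as dashed lines. The filled point, Gstt2 at 0.78, is the only gene past both thresholds, and the intervals of Hpgds, Gsta1 and Gstt3 are the widest.

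Among the theta genes, Gstt2 (ENSMUSG00000033318) lies on chromosome 10 from 75666948 to 75673258 on the minus strand, in the positions of the deposited table. It was at 1.501, 1.87 and 1.32 CPM in the 3 WT libraries, in order of replicate number as throughout, and at 2.98, 2.16 and 2.92 CPM in KO. These rest on 37, 60 and 40 counts in WT and 74, 53 and 78 in KO. The lowest KO library thus lay just above the highest WT library, and all 3 KO libraries were above all 3 WT libraries. The means were 1.56 ± 0.280 and 2.69 ± 0.456 CPM (SD, n = 3 each), a fold change of 1.72. On the log2 scale this was 0.78 with a SE of 0.25 and a 95% interval of 0.24 to 1.32 (adjusted p = 0.344 with edgeR). Gstt2 passed the thresholds after leaving out any 1 of the 6 libraries, with log2 fold changes of 0.67 to 0.94. An exact two-sided permutation test of its log2 CPM gave p = 0.1, the smallest it can give.

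Gstt1 was at 1.14, 0.841 and 0.988 CPM in WT and at 1.21, 1.51 and 1.12 CPM in KO. KO replicate 3 fell just under WT replicate 1, so the genotypes overlapped narrowly. Its log2 fold change was 0.38 (SE 0.31, adjusted p = 0.719 with edgeR), from 27 to 37 counts a library. Gstt3, a theta gene outside the 10, had 0.527, 0.249 and 0.593 CPM in WT and 0.806, 1.26 and 0.486 CPM in KO. It overlapped between genotypes, with a log2 fold change of 0.90 (SE 0.48, adjusted p = 0.576 with edgeR). Its exons lie across Gm20441 on the same strand, with which it shares 21.7% of its stretches of 150 bases. The remaining theta gene, Gstt4, had 0 to 3 counts in each library.

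Summed over Gstt1 to Gstt4, the theta class lay at 3.25, 3.05 and 2.90 CPM in WT and at 4.99, 4.93 and 4.53 CPM in KO. The spread within a genotype was small beside the gap between them, with means of 3.06 ± 0.174 and 4.82 ± 0.255 CPM (SD, n = 3 each). These values rest on 80, 98 and 88 counts in WT and 124, 121 and 121 in KO. At such low counts SDs from 3 libraries are themselves uncertain and may understate the spread. The log2 fold change of the sum was 0.65 (SE 0.18), and it was 0.60 (SE 0.20) without Gstt3. The sum holds Gstt2 with its known difference, and it was not tested apart from it. Genes near Gstt2 on the chromosome, picked after their values were seen, showed no call. Cabin1 had a log2 fold change of 0.29, Ddt of -0.067, Smarcb1 of -0.19 and Mif, a cytokine gene next to Gstt2, of -0.28. Mif was at 17.8, 14.1 and 12.8 CPM in WT and 12.0, 11.4 and 13.4 CPM in KO.

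**Figure D3:**
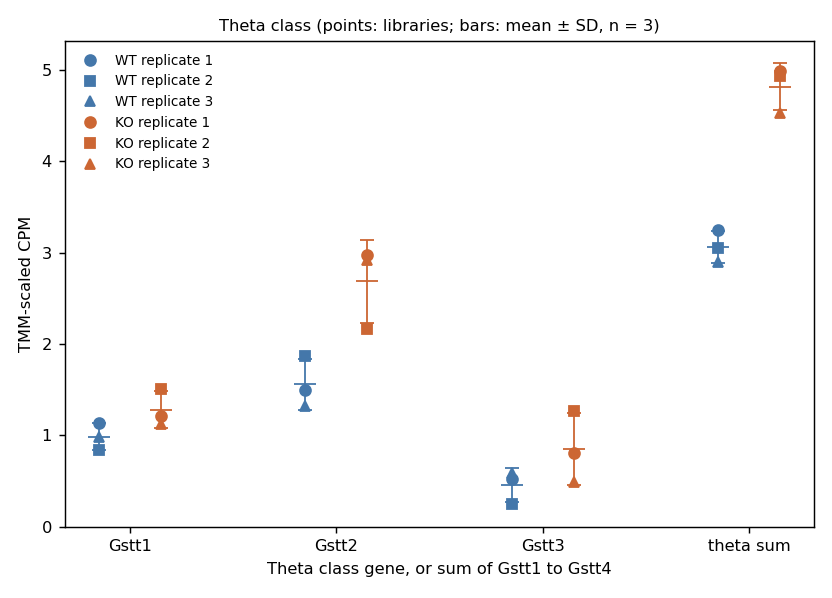
TMM-scaled CPM of Gstt1, Gstt2, Gstt3 and the summed theta class in each library (points), with mean ± SD over 3 libraries (bars). For the sum, WT libraries lie at 2.90 to 3.25 and KO libraries at 4.53 to 4.99, while Gstt1 and Gstt3 overlap between the genotypes.

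The tested genes whose pattern over the 6 libraries was most like that of Gstt2 were Fam161a, the long noncoding RNA gene Gm38150 and Zfp553. Likeness was measured as the root mean square difference of log2 CPM centred on the mean of each gene, which was 0.129, 0.129 and 0.143. Fam161a had 0.730, 1.18 and 0.856 CPM in WT and 1.81, 1.26 and 1.72 CPM in KO.

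The 4 mu genes lie together on chromosome 3, from 107803137 for Gstm5 to 107952210 for Gstm4, and none passed the thresholds. Gstm1 was at 27.5, 41.3 and 26.3 CPM in WT and at 34.5, 37.8 and 39.8 CPM in KO. The 3 KO libraries lay close together, inside the WT range, which WT replicate 2 widened. Its log2 fold change was 0.24 (SE 0.17, adjusted p = 0.680 with edgeR). Gstm2 was at 14.8, 23.2 and 12.9 CPM in WT and at 13.4, 23.7 and 22.3 CPM in KO. The libraries of both genotypes lay either at 12.9 to 14.8 CPM or at 22.3 to 23.7 CPM, with none between, and the log2 fold change of 0.22 was smaller than its SE of 0.29.

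Gstm5, the mu gene with the narrowest interval, was at 30.6, 28.6 and 23.6 CPM in WT and at 27.6, 29.0 and 29.3 CPM in KO. Its log2 fold change was 0.054 with a 95% interval of -0.23 to 0.34. The antisense gene 4933431E20Rik, which overlaps Gstm5 by 393 bases, had 354 to 465 counts a library against 684 to 919 for Gstm5. How reads of the shared bases were assigned is not known. Gstm4 was at 6.29, 4.48 and 3.89 CPM in WT and at 4.63, 4.44 and 5.09 CPM in KO, a log2 fold change of -0.043 (SE 0.20). Summed with Gstm3, Gstm6 and Gstm7, the mu class had 82.0 ± 15.7 CPM in WT and 91.9 ± 9.72 CPM in KO (SD, n = 3 each), and the libraries overlapped.

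The pi gene Gstp1, the member with the highest level, was at 98.1, 125 and 94.4 CPM in WT and at 98.0, 87.5 and 103 CPM in KO. WT replicate 2 stood above the other 5 libraries, which lay within 87.5 to 103 CPM. The log2 fold change was -0.14 (SE 0.15, adjusted p = 0.786 with edgeR). Gstp2, which shares nearly all of its coding sequence, showed the same high library, with 85.9, 129 and 101 CPM in WT and 97.6, 95.7 and 96.9 CPM in KO. Since reads of these genes may be split between them, the sum of the pi class is the safer value: 211 ± 38.1 CPM in WT and 193 ± 8.57 CPM in KO (SD, n = 3 each). Its log2 fold change of -0.13 (SE 0.16) turned to 0.029 without WT replicate 2, so no direction is given for the pi class.

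Gsta4, the alpha member, was at 6.29, 4.70 and 3.52 CPM in WT and at 5.32, 4.93 and 5.16 CPM in KO. The KO libraries fell within the WT range, with a log2 fold change of 0.092 (SE 0.21). Gstk1, the kappa member, was at 15.5, 12.6 and 10.2 CPM in WT and at 12.4, 14.9 and 16.4 CPM in KO. The genotypes overlapped, with a log2 fold change of 0.20 (SE 0.17, adjusted p = 0.733 with edgeR). Gsto1, the omega member, was at 13.8, 10.5 and 11.4 CPM in WT and at 12.8, 13.8 and 12.9 CPM in KO. WT replicate 1 reached the KO level, and the log2 fold change was 0.15 (SE 0.14). Cfap43, which lies across Gsto1, had 22 to 54 counts a library against 318 to 346 for Gsto1.

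The libraries of a genotype did not behave alike over the 10 genes. WT replicate 3 was the lowest of the 6 libraries for 7 of the 10 genes and the highest for 0, where 15.1% of all tested genes were lowest in that library. Of the 9 other tested transferases it was the lowest for 1, Mgst3, and the highest for 1, Hpgds. Relative to the WT mean, the median of the 10 genes was 0.18, 0.030 and -0.23 on the log2 scale for the 3 WT libraries in order of their number, and for KO it was 0.060, 0.23 and 0.16. Without WT replicate 3 the median log2 fold change of the 10 genes was 0.055 in place of 0.17. Marker sums of other cells also set WT replicate 3 apart. The 12 leukocyte markers, of which 11 were tested, summed to 23.2 to 78.5 CPM in WT and 20.3 to 34.8 CPM in KO. Among them 2 of 11 were called, against 5.35% of all tested genes. The macrophage gene Csf1r was lower in KO (log2 fold change -0.69) and the T cell gene Cd3e higher (1.16). Csf1r was not called without WT replicate 3 or without KO replicate 2. Of the 11, 8 had a log2 fold change below 0 and 3 above, the latter including the macrophage genes Cd68 (0.052) and Cd163 (0.27). The 10 fibroblast markers, 9 of them tested, summed to 81.2 to 286 CPM in WT and 71.2 to 154 CPM in KO. The 9 slow fibre markers, all tested, summed to 44.7 to 102 CPM in WT and 36.6 to 55.3 CPM in KO. In each case the highest sum was that of WT replicate 3, no marker of these lists was at 0 in all libraries, and their part in the lower transferase levels was not tested. The slow fibre markers did not all follow their sum. Tnni1, Tnnt1, Tnnc1, Atp2a2 and Myoz2 were highest in WT replicate 3. Myh7, Myh7b and Myl2 were there at 1.15, 0.955 and 1.12 CPM, the lowest of WT, and Myl3 was higher in WT replicate 1.

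**Figure D4:**
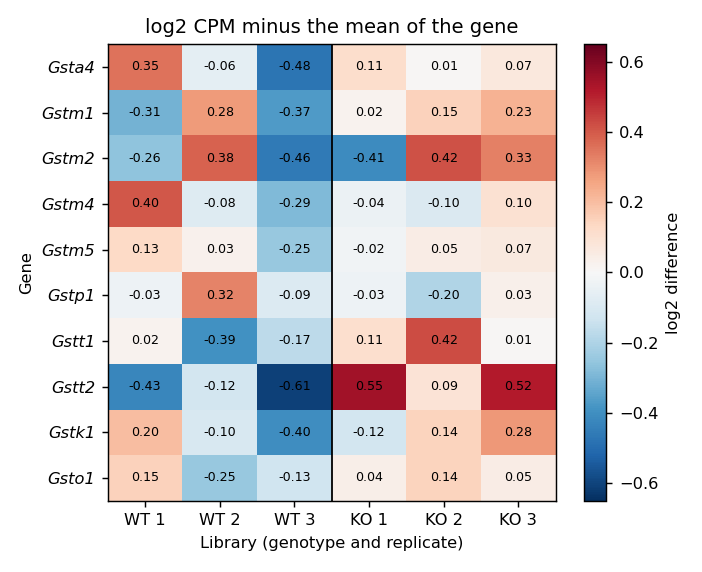
Log2 CPM of each of the 10 genes minus its mean over the 6 libraries, with red above and blue below the mean and the value in each cell. WT 3 is below the mean for all 10 genes, and Gstt2 is the only row below the mean in every WT and above it in every KO library.

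The KO libraries lay closer together than the WT libraries for 7 of the 10 genes, namely Gsta4, Gstm1, Gstm4, Gstm5, Gstp1, Gstk1 and Gsto1. The same was so for 54.2% of all tested genes. The median SD of log2 CPM over the 10 genes was 0.274 in WT and 0.111 in KO, and over all tested genes it was 0.225 and 0.207. Among the 9 other transferases the KO libraries lay closer together for 4, with a median SD of 0.297 in WT and 0.567 in KO.

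Of the 9 other transferase genes tested, 0 passed the thresholds, 3 had a log2 fold change above 0 and 6 below, and the median was -0.12. Over all tested genes 5.35% were called and 50.6% lay below 0, so the count of 0 among 9 says nothing about these genes. Gstz1, the zeta enzyme that works in tyrosine breakdown, was at 22.3, 19.5 and 18.2 CPM in WT and at 17.2, 14.8 and 17.0 CPM in KO. All KO libraries lay below all WT libraries, and the log2 fold change of -0.29 (adjusted p = 0.499 with edgeR) met the threshold on p but not on fold. Among all genes 7.87% had KO libraries lower without overlap. The membrane-bound enzymes Mgst1 and Mgst3, both abundant in this muscle, had log2 fold changes of -0.096 and 0.13. Gstcd, which holds a transferase-like domain, had -0.38 (SE 0.36) and the mu gene Gstm7 0.34 (SE 0.43).

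The remaining genes had few counts. Hpgds, the prostaglandin D synthase of mast cells and other leukocytes, was at 0.690, 0.187 and 1.42 CPM in WT and at 0.685, 0.163 and 0.0748 CPM in KO. Its highest library was WT replicate 3, which also had the highest leukocyte sum, and its log2 fold change was -1.31 (SE 0.88). It ran from -0.47 without WT replicate 3 to -2.65 without KO replicate 1. Gsta1 was at 1.01, 0.654 and 1.25 CPM in WT and at 2.01, 0.245 and 0.262 CPM in KO. KO replicate 1 held 50 counts and the other KO libraries 6 and 7, and 73.7% of its stretches of 150 bases occurred in Gsta2 or other copies.

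Genes that make and recycle glutathione, the substrate of these enzymes, gave 0 calls among 16 tested, with a median log2 fold change of 0.059. At the 5.35% called over all genes, lists of this size would hold few calls or none, so the counts of 0 here and in the lists that follow say nothing about their genes. Gss, which encodes glutathione synthetase, was at 8.92, 7.502 and 8.37 CPM in WT and at 14.2, 13.4 and 8.94 CPM in KO. All KO libraries were above all WT libraries, KO replicate 3 by little. Its log2 fold change of 0.56 (SE 0.18, adjusted p = 0.340 with edgeR) lay just under the fold threshold of 1.5, which it passed without WT replicate 1 (0.62) or without KO replicate 3 (0.74). Gclc and Gclm, the catalytic and modifier subunits of the enzyme for the first step of synthesis, had log2 fold changes of 0.12 and -0.29. Gsr, which reduces oxidised glutathione, had -0.29 (SE 0.15). Among 9 genes that supply NADPH for this reduction there were 0 calls, and among 7 genes of conjugate export and the glyoxalase route 0, with medians of -0.063 and 0.23. Glutathione peroxidases gave 0 calls among 5 and glutaredoxins 0 among 4.

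NRF2 and its regulators gave 0 calls among 10 genes, with a median log2 fold change of -0.17. Nfe2l2, which encodes NRF2, had -0.23 (SE 0.18), or 0.024 without WT replicate 2, and Keap1, its inhibitor, -0.11 (SE 0.13). Among 16 tested NRF2 targets outside the glutathione lists, 3 passed the thresholds and all were lower in KO, where 3.14% of all genes were called as lower. These were Hmox1, which encodes the haem-degrading enzyme heme oxygenase, Txn1, which encodes thioredoxin, and Ftl1, which encodes the light chain of ferritin. Hmox1 was at 3.57, 4.98 and 3.26 CPM in WT and at 2.62, 1.88 and 2.66 CPM in KO, a log2 fold change of -0.72 (adjusted p = 0.354 with edgeR). Txn1 and Ftl1 had -0.54 and -0.61. Each call rested in part on single libraries: Hmox1 was not called without WT replicate 2 (-0.51), Txn1 without WT replicate 1 (-0.47) or KO replicate 2 (-0.365), and Ftl1 without KO replicate 2 (-0.43). The median over the 16 targets was -0.056, and the NRF2 target Nqo1 had 0.096. Hmox1 and Txn1 were known to differ in these libraries when the list was made, so their count is not independent evidence of a direction. Aldehyde-removing enzymes outside the transferases, which share substrates with GSTA4, gave 0 calls among 10 with a median of -0.057.

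Of the 5 red blood cell markers, all had a log2 fold change below 0, against 50.6% of all genes, and Hbb-bs and Hbb-bt were called as lower, against 3.14%. Neither was called without WT replicate 2. The marker sum was 174 to 293 CPM in WT and 142 to 165 CPM in KO. Their part in the values of Hmox1, Txn1 and Ftl1 was not tested. All 8 endothelial markers had a log2 fold change above 0, where 50.6% of all genes lay below 0, with 0 calls. Cdh5 had the largest, 0.50 (SE 0.16, adjusted p = 0.340 with edgeR), under the fold threshold. Its KO libraries all lay above its WT libraries, as for 7.53% of all genes. Cldn5, Emcn and Kdr had only 0.029, 0.030 and 0.062, each smaller than its SE. The sum of the endothelial markers was 64.6 to 107 CPM in WT and 97.4 to 115 CPM in KO. It was lowest in WT replicate 3, and WT replicate 1 lay above KO replicates 1 and 3. The part of the endothelial markers in the higher Gstt2 level was not tested.

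**Figure D5:**
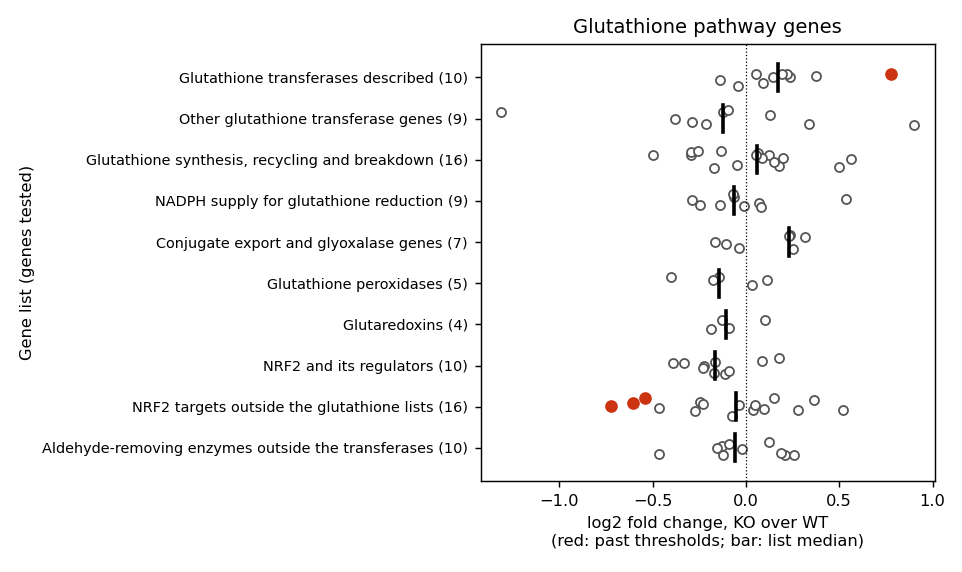
Log2 fold change of KO over WT for each tested gene (points) of the transferases and related lists, with the number tested in parentheses and the list median as a bar. Red points, Gstt2 at 0.78 above 0 and Hmox1, Ftl1 and Txn1 below 0, passed the thresholds, and the other genes of the lists did not.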

How the data were processed

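RNA was sequenced from the TA muscle of 3 WT and 3 KO mice. The authors used Hisat2 to align paired 150-base reads and featureCounts to assign them to genes, and the deposited values are raw counts with no normalization. The methods name GRCm38, while the submitters' processing notes name GRCm39. Of 52083 genes placed by GENCODE M21 (GRCm38), 1494 had the same start and end, so positions of the table are given as in the table, taken as GRCm39. Handling of strand and multiply mapped reads is not given in the sources used here. WT and KO came from the sample labels, and the WT column without a number was taken as replicate 1.

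From the counts, genes were kept by filterByExpr, scaled by TMM (factors 0.893 to 1.20) and compared with edgeR's quasi-likelihood test with robust estimation (edgeR 4.0.16, R 4.3.3), adjusted over 15623 genes by the Benjamini-Hochberg method. Log2 CPM used a prior count of 1. The members and gene lists were chosen with earlier results of these data known. Named genes were all members, every other tested transferase, called genes of each pathway list, Gclc, Gclm, Gss, Gsr, Nfe2l2, Keap1 and Selenow, and the 3 genes nearest to a called member in pattern. Nqo1, Cfap43, Gm20441, 4933431E20Rik, Idh2, Abcc1, Gpx3, the genes near Gstt2 and all singly named fibre, blood, leukocyte and endothelial markers were chosen after their values were seen. Alternatives were DESeq2 1.42.0, its size factors, other count filters, robust estimation off, a replicate block, no mitochondrial genes, leaving out each library, and, chosen after seeing the data, the same settings for named genes outside the transferases, pseudogenes added to the class sums and the theta sum without Gstt3. Replicates differed by more than sampling noise (chi-square per degree of freedom 19.3 to 70.5). No source says that they were separate litters or days, so p-values measure only the spread between these samples. Steps were tested on simulated data. Another coding sequence is not reported here.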

Additional observations from a re-analysis of the deposited data

How the results depend on the processing

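With 3 libraries in each genotype and 27 to 78 counts a library for Gstt1 and Gstt2, differences in the theta genes under the fold threshold could not be resolved. Gstt2 passed the thresholds under all 7 alternative settings, with log2 fold changes of 0.77 to 0.78 and an adjusted p of 0.236 to 0.391, and without any 1 library, with an adjusted p of 0.218 to 0.595 (edgeR, and DESeq2 with 0.384). The count of called members stayed at 1 in each of these runs. Their median log2 fold change was 0.16 to 0.18 under the settings and 0.055 to 0.23 when libraries were left out, lowest without WT replicate 3.

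The number of genes called in the whole table, 836, was 1780 with no filter, which tested 31780 genes, 1545 on an unadjusted p under 0.05 alone, 666 with at least 10 counts in every library, 771 with DESeq2, and 814 to 1072 when libraries were left out. Of the 836, 345 were higher and 491 lower in KO, a split of 418 and 396 without WT replicate 1 and of 239 and 671 without KO replicate 2. With the replicate number as a block, 890 genes were called and Gstt2 had a log2 fold change of 0.78 (adjusted p = 0.391 with edgeR). Same-numbered libraries had correlations of 0.060, 0.044 and -0.074 in their deviations from the group means. These gave no sign that the numbers pair the mice, but they cannot exclude a weak pairing. The pi class ran from -0.22 to 0.029 when libraries were left out, highest without WT replicate 2, and the theta class from 0.61 to 0.70. Of 244 values of the 19 tested transferases, 237 kept their side of the thresholds without a change of sign beyond their SE. Among these genes only Gstt2 had a call to lose, and it was kept. Uncalled genes changed sign when a library was left out: Gsta4 (to -0.093) and Gstm5 (to -0.050) without WT replicate 3, Gstm4 to 0.17, Gstp1 to 0.0019, Gstp2 to 0.055, Mgst1 to 0.033 and Gsta1 to 0.22 at the most. A call was gained by Hpgds with no filter, without WT replicate 2 and without KO replicate 1, by Gsta1 without KO replicate 1 (-1.91) and by Gstt3 without KO replicate 3 (1.19). Of 182 values of 14 other named genes, 8 lost a call, all with a library left out, and 0 reversed. Without the filter, edgeR's adjusted p was 0.0490 for Txn1, 0.0114 for Ftl1, 0.0258 for Cd3e, 0.00252 for Hbb-bs and 0.00187 for Hbb-bt. The log2 fold changes hardly moved, from -0.69 to -0.70 for Hbb-bt, but the SEs did. The SE went from 0.20 to 0.15 for Hbb-bt and from 0.29 to 0.16 for Gstm2, and rose from 0.25 to 0.28 for Gstt2. These adjusted p-values thus depend on the filter.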

Other observations

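Gpx3, which encodes the secreted glutathione peroxidase and was picked after its values were seen, fell into the same split of libraries as Gstm2. It was at 48.3, 88.0 and 38.7 CPM in WT replicates 1, 2 and 3 and at 39.0, 72.2 and 78.5 CPM in KO replicates 1, 2 and 3, so WT replicate 2 and KO replicates 2 and 3 were high in both genes. The summed fast fibre markers were also highest in these libraries, at 101340, 103120 and 98113 CPM, against 78833, 81229 and 87750 CPM in WT replicates 1 and 3 and KO replicate 1. Myh4 was the largest part of the sum, at 29623 to 46028 CPM. Myh4, Actn3, Tnnt3 and Atp2a1 each showed the split, while Mylpf, Tnni2, Tnnc2 and Pvalb did not. Myh1 kept the order but with almost no gap, at 9933 CPM in WT replicate 2 and 9903 CPM in KO replicate 1. Mylpf was highest in KO replicate 1 (5939 CPM) and lowest in KO replicate 3 (4464 CPM). This split runs across genotype. Idh2, a mitochondrial source of NADPH, was at 41.3, 32.0 and 33.6 CPM in WT and at 34.4, 57.2 and 63.1 CPM in KO, high in KO replicates 2 and 3 only, with a log2 fold change of 0.53 (adjusted p = 0.461 with edgeR), under the fold threshold. Abcc1, which encodes an exporter of glutathione conjugates, was at 13.1, 15.8 and 16.6 CPM in WT and at 19.0, 20.96 and 16.8 CPM in KO, with no overlap and a log2 fold change of 0.32 (adjusted p = 0.491 with edgeR).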
